A study of Mus musculus with 2 samples.

Results

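The CXC chemokines are a family of small secreted proteins that steer white blood cells, and platelet factor 4 (gene Pf4) belongs to it. The family was looked up by gene name among 11349 protein-coding genes measured by RNA sequencing in mouse macrophages of the abdominal cavity. Of 10 genes sought, 8 were in the table. Cxcl1, Cxcl2, Cxcl5, Cxcl10, Cxcl13, Cxcl14, Cxcl16 and Pf4 were found, while Cxcl3 and Ppbp were not analysed here. The study has 2 groups of 1 library each. The WT library, headed C57, comes from primary macrophages without a targeted gene, and the knockout library from primary macrophages titled as TREM-2-/-, although that sample's genotype field says knockdown. Both cultures received TGF-β1, a growth factor of wound repair, for 24 h, so no untreated cells were compared. The labels do not say how many mice gave cells, their age, or how the Trem2 allele was made. Values are FPKM, fragments per kilobase of gene and per M (mega, the SI prefix) fragments of library.

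With 1 library per group there is no replicate check and no test, and the differences below describe these 2 libraries. A gene is called higher or lower when log2((knockout FPKM + 1)/(WT FPKM + 1)) passes 2-fold, among genes with a mean of at least 1 FPKM. The added 1 FPKM understates the change of low genes. Spacing between low values puts the depth at about 13.5 M fragments for WT against 12.4 M for the knockout. The intervals given for ratios are exact Clopper-Pearson 95% intervals on these estimated fragments, and they cover counting error only. Trem2, the targeted lipid receptor of macrophages, read 135 FPKM in WT against 13.7 FPKM in the knockout. All 8 macrophage markers sought were listed, with a summed level of 10497 FPKM in WT against 13142 FPKM in the knockout. Most of each sum was the marker Lyz2, at 7962 and 10170.5 FPKM. Of the 8 markers, 2 were at least 2-fold lower and 0 higher, beside 13.7% and 3.49% of all genes. In bulk RNA, fewer cells of a type and less RNA per cell cannot be told apart.

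CXC chemokines carry a pair of cysteines near the front of the mature protein with a single residue between them. In the ELR branch, the residues glutamate, leucine and arginine, whose letters name it, stand just before the first cysteine, and these proteins bind the receptor CXCR2 and draw neutrophils. The others lack ELR and act on other cells: CXCL10 on activated T cells through CXCR3, CXCL13 on B cells through CXCR5, and CXCL16 on T and NKT cells through CXCR6. In macrophages many genes of the ELR branch are switched on by NF-κB downstream of microbial sensors and interleukin-1, whereas Cxcl10 answers to interferons.

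The coding sequence shows the split on which the results are ordered. Each line holds 36 coding bases (GENCODE M21, GRCm38) around the cysteine pair, and capitals mark the 3 codons before the first cysteine codon. In the ELR branch these codons read glutamate, leucine, arginine.
Cxcl1, chr5:90891478-90891513, + strand: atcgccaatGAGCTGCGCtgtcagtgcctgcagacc
Cxcl2, chr5:90904124-90904159, + strand: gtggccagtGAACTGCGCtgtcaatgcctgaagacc
Cxcl5, chr5:90759709-90759744, + strand: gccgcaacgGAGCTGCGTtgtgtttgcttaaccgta
Cxcl10, chr5:92348172-92348207, - strand: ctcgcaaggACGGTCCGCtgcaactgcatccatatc
Cxcl13, chr5:95958646-95958681, + strand: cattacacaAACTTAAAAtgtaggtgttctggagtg
Cxcl14, chr13:56295906-56296119, - strand: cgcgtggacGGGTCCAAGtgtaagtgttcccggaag
Cxcl16, chr11:70459118-70459153, - strand: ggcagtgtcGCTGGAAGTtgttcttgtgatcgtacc
Pf4, chr5:90772926-90772961, + strand: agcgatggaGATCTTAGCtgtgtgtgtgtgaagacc
Cxcl1, Cxcl2 and Cxcl5 have the ELR codons and the other 5 do not. The Cxcl14 window crosses an intron, so its coordinates span more than the bases shown. Cxcl1 and Cxcl2 share 75.7% of their coding bases, and the longest identical stretch of their spliced transcripts is 23 bases. Cxcl2 and the unlisted Cxcl3 share 89.7%, with an identical stretch of 110 bases, so reads can be split between those copies and the Cxcl2 value is less certain.

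The knockout library held all 3 listed ELR genes below WT by 2-fold or more, where 13.7% of the 9956 genes that passed the filter were lower to that extent. Cxcl5, known in mouse as LIX and a strong attractant of neutrophils, read 35.6 FPKM in WT against 0.377 FPKM in the knockout. It was the third most abundant member in WT and number 7 of 8 in the knockout, where about 8.73 fragments stand behind it. The knockout level was 94.3-fold lower, with a counting interval of 48.0 to 201. On the log2(FPKM + 1) scale the change was -4.73, which placed it at rank 2 from the bottom of 9956 genes.

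Cxcl1, or KC, the mouse counterpart of the GRO chemokines, read 8.92 FPKM in WT against 2.88 FPKM in the knockout. This is 3.09-fold lower (interval 2.34 to 4.13). Cxcl2, or MIP-2, which macrophages release early in inflammation, read 3.71 FPKM in WT against 1.31 FPKM in the knockout. It was 2.84-fold lower (interval 1.88 to 4.24). The log2 changes with 1 FPKM added were -1.35 for Cxcl1 and -1.03 for Cxcl2, so Cxcl2 lay just past the 2-fold line. The summed level of the ELR genes was 48.2 FPKM in WT against 4.57 FPKM in the knockout. Cxcl5 led this group in WT at 3.99 times the Cxcl1 level, but in the knockout Cxcl1 stood at 7.64 times Cxcl5.

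**Figure D1:**
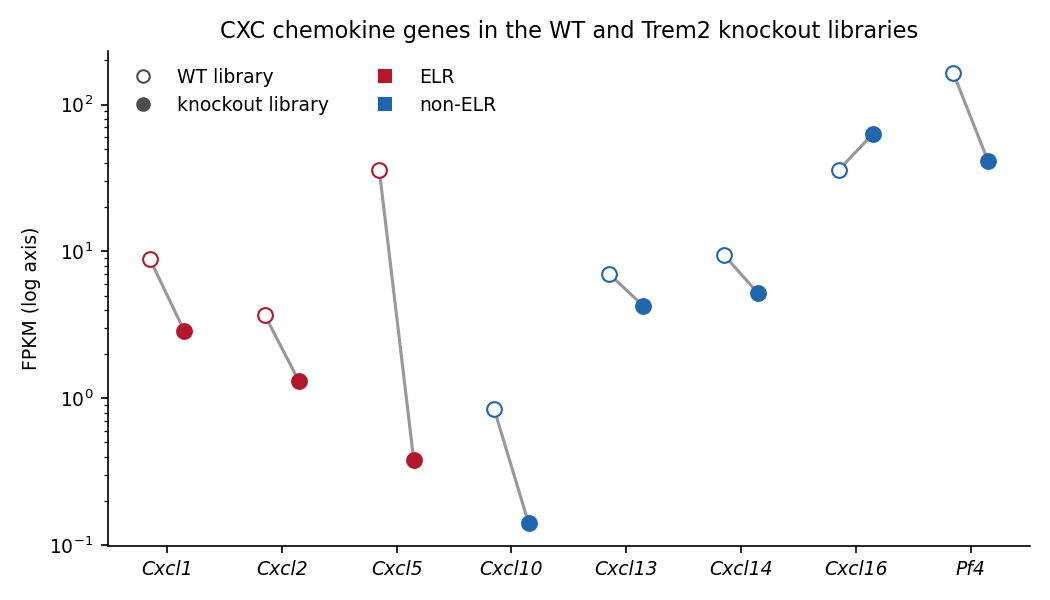
FPKM of each listed CXC chemokine gene on a log axis, with an open circle for the single WT library and a filled circle for the single knockout library, ELR genes in red and non-ELR genes in blue. Cxcl5 drops from 35.6 to 0.377 FPKM, and Cxcl16 is the gene whose knockout value lies above WT.

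The non-ELR genes went different ways. Pf4, a heparin-binding protein of platelet granules that mouse macrophages also make, was the most abundant member in WT at 163 FPKM and read 41.5 FPKM in the knockout. It was 3.93-fold lower, with a narrow counting interval of 3.51 to 4.41 that rests on about 1587 and 372 fragments. Its log2 change was -1.95. Pf4 made up 61.7% of the members' summed FPKM in WT against 34.9% in the knockout.

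Cxcl16, a membrane-bound chemokine that also takes up oxidised lipid, ran the other way. It read 35.8 FPKM in WT against 63.4 FPKM in the knockout. The knockout level was 1.77 times WT, with a counting interval of 1.66 to 1.89. At a log2 change of 0.81 it was within 2-fold, and it passed 2-fold, at 1.11, relative to the median of all genes. Its share of the members' summed FPKM was 13.5% in WT against 53.2% in the knockout, which made it the most abundant there. Exons of Zmynd15 overlap Cxcl16 on the opposite strand. Zmynd15 read 1.16 FPKM in WT against 0.124 FPKM in the knockout, far below Cxcl16 in both.

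Cxcl13, the B cell attractant made by resident macrophages of the body cavities, read 7.05 FPKM in WT against 4.25 FPKM in the knockout. Cxcl14, a chemokine of epithelia and stroma in resting tissue, read 9.48 FPKM in WT against 5.17 FPKM in the knockout. Both were under 2-fold, 1.66-fold lower for Cxcl13 (interval 1.19 to 2.29) and 1.83-fold lower for Cxcl14 (interval 1.47 to 2.32). Cxcl10, the interferon-induced attractant of T cells, was barely detected at 0.845 FPKM in WT against 0.141 FPKM in the knockout. These values rest on about 25.6 and 3.95 fragments, and the ratio was 5.98-fold lower with a wide interval of 2.08 to 23.6. At a mean of 0.493 FPKM Cxcl10 did not pass the filter and is in none of the counts. Art3 overlaps exons of Cxcl10 on the opposite strand and was not analysed here.

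**Figure D2:**
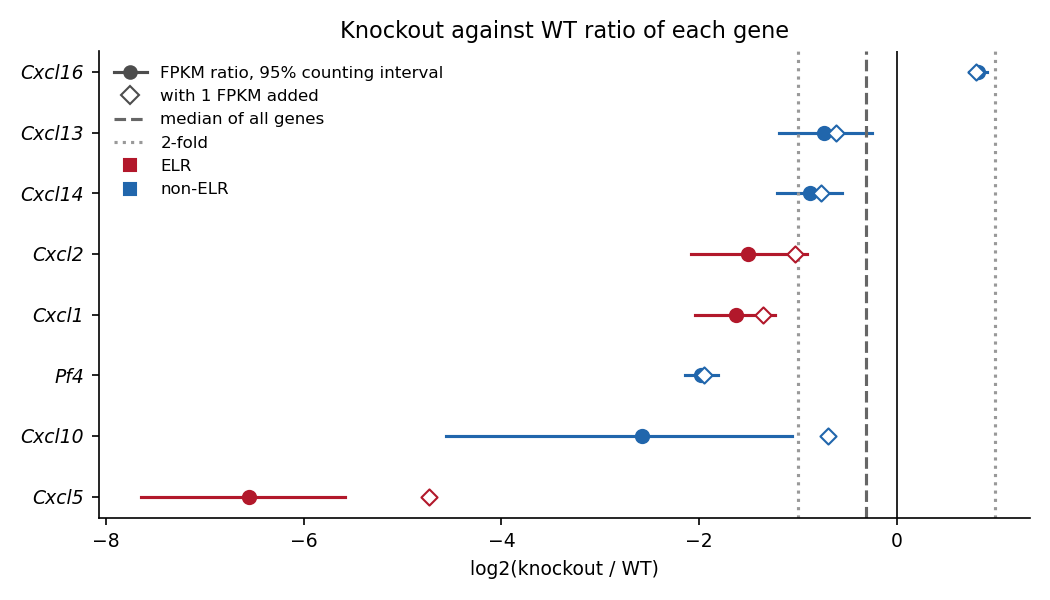
Log2 ratio of knockout to WT for each listed CXC chemokine gene. Filled circles are FPKM ratios with 95% counting intervals, open diamonds the change with 1 FPKM added, the dashed line the median of all genes at -0.31 and the dotted lines 2-fold. Cxcl5 lies farthest to the left, Cxcl10 has the widest interval, and Cxcl16 lies to the right of 0.

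Of the 7 members that passed the filter, 4 were at least 2-fold lower and 0 higher. Over all 9956 genes that passed, 13.7% were lower and 3.49% higher. By branch, 3 of 3 ELR genes were lower, against 1 of 4 non-ELR genes, which was Pf4. The difference between the branches was not tested. The median log2 change of the 7 members was -1.03, beside -0.31 for all genes. Set against that general shift, 3 members were lower (Cxcl1, Cxcl5 and Pf4) and 1 was higher (Cxcl16), where 6.57% of all genes were lower and 7.7% higher. Cxcl2 then lay within 2-fold at -0.72. With 5 FPKM added in place of 1, Cxcl5 and Pf4 remained at least 2-fold lower and Cxcl1 and Cxcl2 did not. No share over all genes was taken at that setting.

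**Figure D3:**
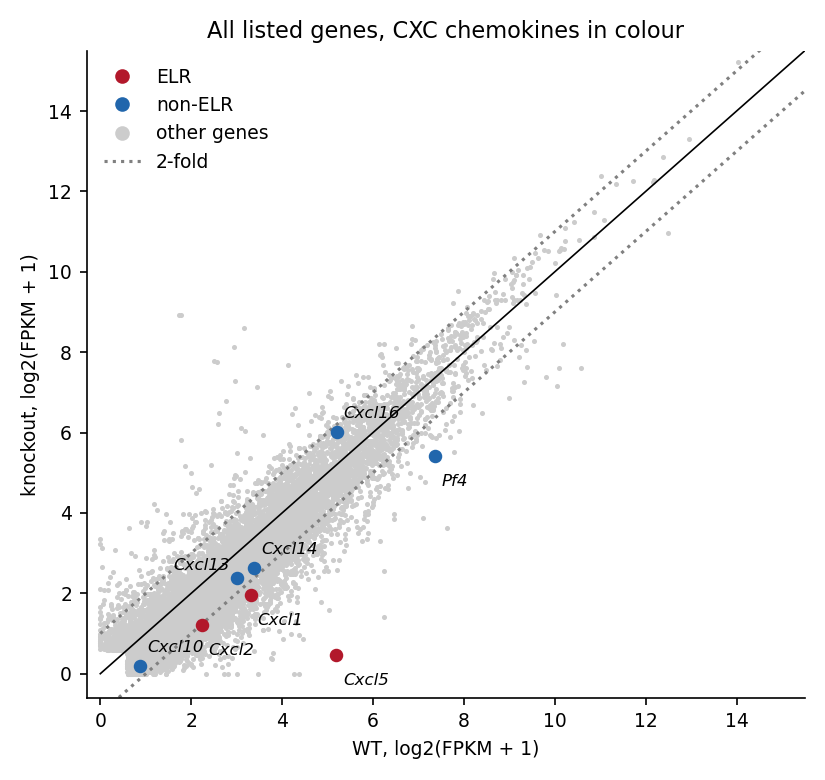
Level of every listed gene in the knockout library against the WT library, both as log2(FPKM + 1), with ELR genes in red, non-ELR genes in blue, equality as a solid line and 2-fold as dotted lines. Cxcl5 and Pf4 lie clearly under the lower 2-fold line, and Cxcl16 lies above equality within 2-fold.

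Cxcl1 and Cxcl2 were both lower, and their promoters are shown because they share a letter string in front of the gene. The sequences are RefSeq promoters (GRCm38.p6), available here for 6 of the 8 listed members, and 250 bases before the start were searched on both strands. No promoter was available for Cxcl5 or Cxcl16, so whether these genes hold the string was not examined. The patterns were GGGNNNNNCC for NF-κB, GAAANNGAAA for interferon response factors and TGANTCA for AP-1. Capitals mark matches, and a capital run of 11 bases holds overlapping matches offset by 1 base.
Cxcl1, chr5:90891125-90891244, + strand: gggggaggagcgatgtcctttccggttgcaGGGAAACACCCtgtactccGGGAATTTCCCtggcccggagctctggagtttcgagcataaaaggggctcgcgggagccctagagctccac
Cxcl2, chr5:90903779-90903898, + strand: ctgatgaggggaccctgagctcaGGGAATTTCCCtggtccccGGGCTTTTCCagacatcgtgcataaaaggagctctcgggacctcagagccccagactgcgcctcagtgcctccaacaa
Cxcl10, chr5:92348890-92349139, - strand: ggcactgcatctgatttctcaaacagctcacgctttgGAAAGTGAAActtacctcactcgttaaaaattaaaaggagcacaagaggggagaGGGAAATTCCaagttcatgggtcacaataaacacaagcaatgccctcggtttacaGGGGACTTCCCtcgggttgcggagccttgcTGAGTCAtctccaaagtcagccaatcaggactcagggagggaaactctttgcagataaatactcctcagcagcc
Pf4, chr5:90772185-90772434, + strand: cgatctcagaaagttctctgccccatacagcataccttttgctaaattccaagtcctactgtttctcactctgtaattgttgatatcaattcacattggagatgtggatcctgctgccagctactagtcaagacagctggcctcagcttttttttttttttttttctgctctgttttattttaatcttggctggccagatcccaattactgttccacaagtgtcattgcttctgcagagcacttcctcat
The string GGGAATTTCC begins 71 bases before the RefSeq start of Cxcl1 and 97 bases before that of Cxcl2, and the unlisted Cxcl3 has it too. For Cxcl1 and Cxcl2 the RefSeq starts lie downstream of the GENCODE gene starts given below, further so for Cxcl2. In these genes the string overlaps GGGAAATTCC on the opposite strand, and Cxcl10 holds GGGAAATTCC as well, so the latter is not limited to the ELR genes. Both strings were picked out after the matches were seen, and 28 of 32851 promoters (0.0852%) hold the first and 32 (0.0974%) the second, on either strand. The looser pattern GGGNNNNNCC is common, at 45.8% of promoters, and Cxcl10 and Cxcl13 also match it. Cxcl10, shown for contrast, has GAAAGTGAAA 213 bases before its RefSeq start, a match to a pattern found in 2.98% of promoters, and TGAGTCA 74 bases before it, where 6.75% of promoters match. Cxcl14 matches the interferon pattern as well. The Pf4 window has no match to these letters. A match is a string of letters and not a measured binding site.

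Apart from Cxcl16 and Cxcl14 the listed members lie on chromosome 5 (mm10). Cxcl16 (ENSMUSG00000018920.11, 70453983 to 70459984) lies on chromosome 11 and Cxcl14 (ENSMUSG00000021508.11, 56288643 to 56296551) on chromosome 13. Cxcl5 (ENSMUSG00000029371.7, 90759360 to 90761624), Pf4 (ENSMUSG00000029373.7, 90772435 to 90773383), Cxcl1 (ENSMUSG00000029380.11, 90891241 to 90893115) and Cxcl2 (ENSMUSG00000058427.10, 90903871 to 90905938) fall within 147 kb. No other listed gene lies inside that stretch, and all 4 were at least 2-fold lower. Cxcl10 (ENSMUSG00000034855.13, 92346638 to 92348889) starts 1587 kb and Cxcl13 (ENSMUSG00000023078.6, 95956951 to 95961068) 5198 kb from the Cxcl5 start. Within 500 kb of the span from Cxcl5 to Cxcl13, 14 other genes passed the filter. Of these 0 were lower by 2-fold and 1 was higher, beside 13.7% and 3.49% of all genes. The higher gene was Stbd1, a glycogen-binding protein, at 5.32 FPKM in WT against 18.7 FPKM in the knockout. Stbd1 was named after its value was seen. The median log2 change of these 14 neighbours was 0.0073, beside -0.31 for all genes. Past Cxcl2 the nearest of them starts 1189.5 kb from the Cxcl5 start, so they say little about the surroundings of the 147 kb stretch.

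**Figure D4:**
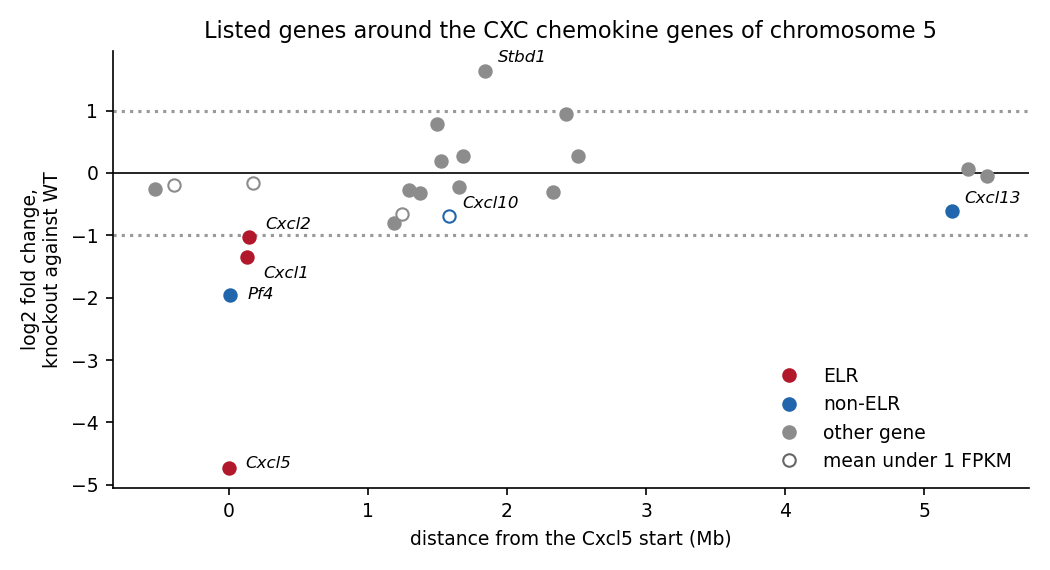
Log2 fold change with 1 FPKM added for listed genes around the chromosome 5 chemokine genes, against distance from the Cxcl5 start in Mb, with ELR genes in red, non-ELR genes in blue and other genes in grey; open circles have a mean under 1 FPKM. Cxcl5, Pf4, Cxcl1 and Cxcl2 lie at or under the lower 2-fold line (dotted), and the grey neighbours lie above it.

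Few other genes of the chemokine and receptor families were listed. Cxcl12, the CXCR4 ligand that retains cells in bone marrow, read 2.73 FPKM in WT against 2.08 FPKM in the knockout. Its receptor Cxcr4 was abundant at 115 FPKM in WT against 140.1 FPKM in the knockout. Both differences were under 2-fold. Cxcr3, the receptor for CXCL10, was low at 1.09 and 0.232 FPKM and did not pass the filter, and 6 of the 8 receptors sought, CXCR2 among them, were not analysed here. The proteases that shed CXCL16 from the membrane, and Rhbdf2, a regulator of ADAM17, were within 2-fold. Adam10 read 40.6 FPKM in WT against 26.6 FPKM in the knockout, Adam17 38.4 and 31.5 FPKM, and Rhbdf2 7.27 and 7.37 FPKM.

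The NF-κB list holds cytokines, receptors and NF-κB subunits that induce ELR chemokines together with inhibitors of NF-κB such as Nfkbia, Tnfaip3 and Tnip1. Of its 17 genes that passed, 1 was higher and 2 were lower, beside 3.49% and 13.7% of all genes, and the median log2 change was -0.41, beside -0.31. Il1a, the alarm cytokine interleukin-1α, read 23.9 FPKM in WT against 76.7 FPKM in the knockout. Il1r1, the receptor for interleukin-1, read 13.6 FPKM in WT against 2.85 FPKM in the knockout. Bcl3, a nuclear partner of NF-κB, read 13.3 and 5.68 FPKM, and the cytokine Tnf 9.77 and 4.58 FPKM, the latter within 2-fold. Genes that control decay of chemokine mRNAs had 1 of 7 lower, close to the 13.7% of all genes, and 0 higher. The lower gene was Traf3ip2, the adaptor of the IL-17 receptor, at 3.66 FPKM in WT against 1.22 FPKM in the knockout. Zfp36l1, Zfp36l2 and Zc3h12a, which promote mRNA decay, read 20.1, 41.7 and 10.2 FPKM in WT and 28.3, 60.4 and 12.4 FPKM in the knockout. The other 4 of the 7 genes were below WT, Zfp36 (22.6 and 19.4 FPKM) and Rc3h1 (3.95 and 3.50 FPKM) among them. The median log2 change of this list was -0.14, beside -0.31 for all genes.

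Genes upstream of Cxcl10 in the interferon response had 1 of 10 lower and 0 higher, with a median of -0.35, close to the 13.7% lower and the median of -0.31 over all genes. Irf9, the DNA-binding part of the interferon complex, read 7.35 FPKM in WT against 2.43 FPKM in the knockout. Its partner Stat2 (4.09 and 1.58 FPKM) and the sensor-linked Irf3 (10.6 and 5.17 FPKM) stayed within 2-fold with 1 FPKM added. Of the 10 genes 6 were below WT, and the list summed to 237 FPKM in WT against 256 FPKM in the knockout. Ifnar2 was above WT, at 55.9 and 98.4 FPKM, and passed 2-fold, at 1.11, only relative to the median of all genes. Carriers of the sugar chains that hold PF4 and other chemokines had 1 of 7 higher and 0 lower, beside 3.49% and 13.7% of all genes. The higher gene was the syndecan Sdc2, at 4.95 FPKM in WT against 14.2 FPKM in the knockout. Sdc1 read 40.8 and 74.4 FPKM, Sdc3 34.1 and 43.9 FPKM, and the proteoglycan Vcan 1.37 and 0.756 FPKM. The median log2 change of these carriers was 0.15, beside -0.31 for all genes.

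Proteases that trim chemokines had 2 of 4 lower, beside 13.7% of all genes, with a median of -0.79. Mmp12, the macrophage elastase, read 235 FPKM in WT against 65.3 FPKM in the knockout. Mmp8, a collagenase that cleaves CXCL5, read 19.5 FPKM in WT against 6.74 FPKM in the knockout. Mmp9 (4.40 and 3.798 FPKM) and the aminopeptidase Anpep (253 and 331 FPKM) were within 2-fold. With the median of all genes set to 0, the counts of higher and lower genes became 2 and 1 for NF-κB induction, 0 and 0 for mRNA decay, 1 and 0 for interferon induction, 2 and 0 for the sugar-chain carriers and 0 and 2 for the proteases. Over all genes 7.7% were then higher and 6.57% lower.

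**Figure D5:**
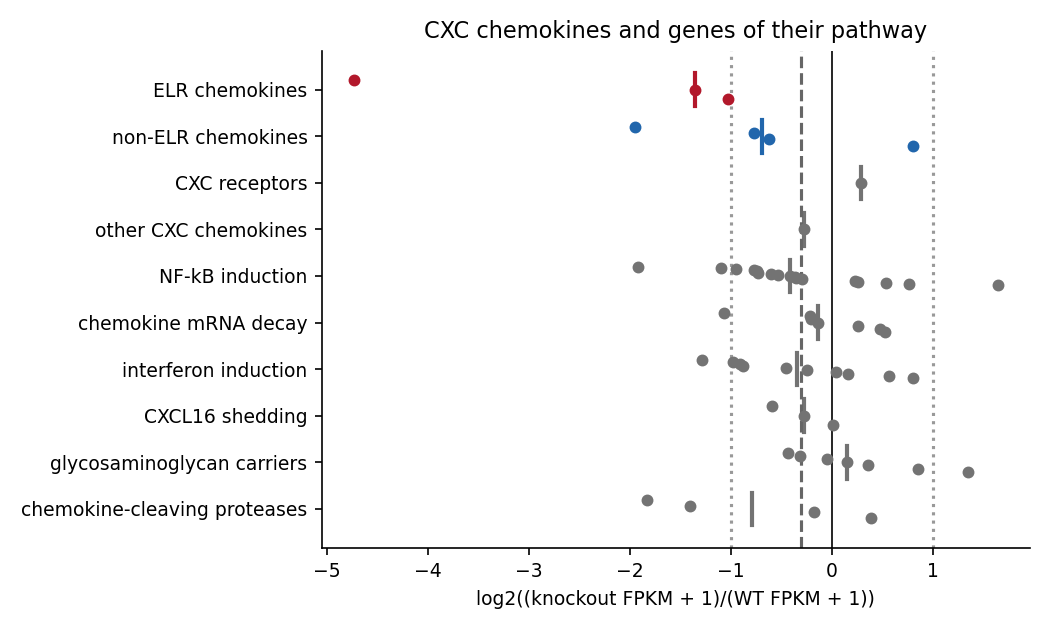
Log2 fold change, with 1 FPKM added, of the CXC chemokines and of genes in the pathway lists that passed a mean of 1 FPKM, where each point is a gene and each bar a list's median. The dashed line is the median of all genes and the dotted lines are 2-fold; the ELR genes, in red, all lie left of the lower 2-fold line, and Pf4 is the lowest blue point.

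Other cell types can make several of these chemokines, so their markers were read beside them. Of 12 platelet and megakaryocyte markers, 3 were listed, summing to 6.22 FPKM in WT against 7.53 FPKM in the knockout, while Pf4 read 163 and 41.5 FPKM. Itgb3, which macrophages also express, read 4.70 and 5.94 FPKM, and Treml1 (0.838 and 0.772 FPKM) and Clec1b (0.673 and 0.821 FPKM) stayed under 1 FPKM. All 7 listed mesothelial markers of 8 were below their WT level in the knockout, with summed levels of 17.1 and 4.79 FPKM. Of all genes that passed the filter 68.2% were below WT, and 3 of these 7 markers passed it. Krt19 read 4.74 and 0.172 FPKM, Wt1 6.20 and 2.49 FPKM, and Krt18 1.497 and 0.6002 FPKM. These markers share their direction with the ELR genes and with most genes, and their part in the ELR difference was not tested.

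All 7 fibroblast markers were listed and summed to 237 FPKM in WT against 404 FPKM in the knockout. The collagen genes Col1a1 (48.1 and 171 FPKM), Col1a2 (50.6 and 108 FPKM) and Col3a1 (34.2 and 66.7 FPKM) were above WT. Pdgfra was 4.88-fold lower, and Dcn, the most abundant of the 7 in WT, read 71.4 and 48.9 FPKM. The summed rise is thus one of collagen genes, and the list was split. Of the 7 markers 2 were at least 2-fold higher and 1 lower, beside 3.49% and 13.7% of all genes. Their median log2 change was 0.17, beside -0.31. Of 11 neutrophil markers 4 were listed, at a sum of 34.96 FPKM in WT against 20.3 FPKM in the knockout, among them S100a8 (15.7 and 8.17 FPKM), S100a9 (1.12 and 0.611 FPKM), Csf3r (16.6 and 9.52 FPKM) and Lcn2 (1.52 and 1.996 FPKM). Of 10 markers of resident peritoneal macrophages, the cells known for Cxcl13, 5 were listed. Gata6, the factor that defines them, read 14.0 FPKM in WT against 2.67 FPKM in the knockout, and Icam2 2.08 and 0.398 FPKM, while Fn1 read 97.4 and 143 FPKM. The 5 together summed to 115 FPKM in WT against 149 FPKM in the knockout, most of each sum from Fn1. Of 5 B cell markers 3 were listed, Cd22 at 8.58 and 9.29 FPKM, Cd79a at 0.351 and 0.708 FPKM and Cd79b at 0.652 and 0.614 FPKM. No listed marker of these cell types was at 0 in either library, and the part of these cells in the chemokine values was not tested. Of the 8 macrophage markers 3 were below WT in the knockout. They were Fcgr1 (55.9 and 14.4 FPKM), Itgam (92.7 and 41.2 FPKM under the more abundant of its IDs) and Mertk (16.6 and 8.18 FPKM). The other macrophage markers, Cd68 (1169 and 1512 FPKM) among them, were above WT. The median log2 change of the macrophage markers was 0.18, beside -0.31 for all genes.

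Genes with a change closest to that of Cxcl5 were read off the ranking of 3796 genes that averaged at least 10 FPKM, by the difference in log2 fold change over the 2 libraries. Serpinb2, an inhibitor of plasminogen activators, differed from Cxcl5 by 0.085 and was the gene ranked below it, at 74.5 FPKM in WT against 1.68 FPKM in the knockout. Next above came mt-Nd3, a respiratory chain subunit, and C5ar1, the receptor for the complement fragment C5a, which differed by 0.74 and 1.04. For Cxcl16 the nearest genes were Sec11c, Prdx4, Rps16 and S100a1, which all lay within 0.0022 of it. A ranking over 2 libraries orders single differences and is no measure of co-expression.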

How the data were processed

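Per the labels' protocols, total RNA of both cultures went into dUTP libraries, which mark the strand, for sequencing on an Illumina machine. The authors deposited FPKM per gene, per the file headers, and mm10 is the build in the submitters' processing notes. No source used here gives the aligner, quantifier or annotation, or whether counting used strand. Each of the 11349 genes reached at least 0.501 FPKM in a library, and genes below that in both libraries are not analysed here. Sample titles gave the groups. For 10 symbols with several IDs, the more abundant ID was used.

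Fold changes used a pseudocount of 1 FPKM, a mean of at least 1 FPKM and a threshold of 2-fold. Gene IDs and positions matched GENCODE M21 for 9914 genes, all 8 members among them. FPKM times merged exon length in single-transcript genes fell within 0.1 of whole steps in 63.4% of 123 values for WT and in 71.5% of 186 for the knockout. For each library the step was chosen by a search as the one with the largest share. Chance gives 20.0% for a step fixed in advance, so the shares are no test against that value. In both libraries 300 steps (aligned bases) were taken as 1 fragment. Depth is therefore an estimate, used for intervals only. Coding bases of each member's longest coding sequence were aligned globally. The fold rule, the intervals and the step search were tested on simulated data. These simulations held counting error and exact steps only, and the value of 300 steps per fragment was not tested. The members and gene lists were chosen with earlier results of these data known.

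Named genes are the members, Trem2, the listed genes of the other CXC, receptor and CXCL16 shedding lists, all genes of any list with fewer than 5 listed, up to 4 genes with the largest change among those that passed the filter in every other list, and the genes nearest Cxcl5 and Cxcl16 in fold change. Lyz2, Stbd1, Dcn, Zfp36, Rc3h1, Ifnar2 and the overlapping genes Zmynd15 and Art3 stand outside the rule, and were chosen after values were seen. The same holds for the NF-κB inhibitors named without values. A gene that this rule takes is not reported here. Alternatives were other pseudocounts, filters, thresholds and scalings. The work used Python 3.11.15 with biopython 1.88, scipy 1.17.1, numpy 2.4.6, matplotlib 3.10.9 and pandas 2.3.3.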

Additional observations from a re-analysis of the deposited data

How the results depend on the processing

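No paired analysis was possible because there is 1 library per group, and no replicate could be left out. Cxcl1, Cxcl2, Cxcl5, Cxcl10, Cxcl13, Cxcl14 and Pf4 stayed lower and Cxcl16 higher under all 5 pseudocount and scaling alternatives. Cxcl5 (log2 -6.22 to -2.92) and Pf4 (-2.11 to -1.56) stayed past 2-fold in all of them. The 4 lower members became 2 with a pseudocount of 5 FPKM and 1 at a 4-fold threshold. The 3 lower ELR genes became 1 under either of these settings. With a filter at a mean of 5 FPKM the lower ELR genes became 2, without Cxcl2, and the lower members 3. The same held with the median of ratios set to 1 and with the log ratios centred on their trimmed mean. The 1 lower non-ELR gene became 3 at 1.5-fold and 0 at 4-fold. The 0 higher members, and the 0 higher non-ELR genes, became 1 (Cxcl16) at 1.5-fold, with the median of ratios set to 1 (Cxcl16 at 1.12) and with the log ratios centred on their trimmed mean (Cxcl16 at 1.20). These scalings shift log2 ratios of FPKM by 0.32 and 0.40, and rescaling to the same total by -0.16, and low genes move less once 1 FPKM is added. The members' median of -1.03 became -1.44 and -0.51 with pseudocounts of 0.1 and 5 FPKM, -0.90 with no filter, and -0.84 and -0.79 under the median of ratios and the trimmed mean. A rule added after seeing the data was a counting interval wholly beyond 2-fold. Among members that passed the filter it was met by 3 on the lower side and 0 on the higher. It was applied to the members only, so no share over all genes stands beside these counts. Cxcl10, which did not pass, had an interval of 2.08 to 23.6-fold lower. Depth limits Cxcl10 and the knockout value of Cxcl5 most.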

Other observations

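Cxcl5 has 2 annotated transcripts, a spliced coding transcript and a longer one that keeps an intron and covers all 1863 merged exon bases. Its knockout FPKM ends after 6 decimals and its WT value does not. Among 296 genes that have several transcripts and a transcript as long as the merged exons, 43.9% of knockout values and 34.1% of WT values end in this way. Among 8673 genes with no such transcript the shares are 0.323% and 0.207%. A value that ends after 6 decimals is what a gene value carried wholly by the longest transcript would give. The deposited table holds no values per transcript, so how the fragments of Cxcl5 were divided in either library was not measured here.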
